A study of Mus musculus with 6 samples.

Results

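The genes described here mark the enteric nervous system in the colon of mice on a high-fat diet that were either prone to obesity (OP mice) or resistant to it (OR mice). They were chosen by symbol, as 8 of the 17778 genes in the authors' expression table: *Elavl4*, *Uchl1*, *Ret*, *Nos1*, *Vip*, *Tac1*, *S100b* and *Sox10*. Colon RNA was sequenced in 3 OP mice and 3 OR mice, with 1 library for each mouse. All were wild-type male C57BL/6J mice, 21 weeks old, that had been fed a diet with 60% fat for 16 weeks, and the labels give no other treatment. By the study's methods, the OP group was the 10 mice with the greatest and the OR group the 10 mice with the smallest weight gain among 42 mice on the diet, so the groups are the ends of 1 cohort of an inbred strain. Mice on other diets were not analysed here.

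The enteric nervous system lies within the wall of the gut as a myenteric plexus between the muscle layers and a submucosal plexus beneath the mucosa. Its excitatory motor neurons release acetylcholine and tachykinins, its inhibitory motor neurons release nitric oxide and vasoactive intestinal peptide, and enteric glia surround both kinds of neuron. Because whole colon tissue was measured, fewer cells of a type and less RNA per cell cannot be told apart in any of the values given here.

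Expression is given as FPKM, a fragment count scaled to the transcript's length and to the library's mapped fragments, as the authors deposited it. FPKM carries no read totals, so the depth of the libraries is unknown; the values of a mouse summed to between 585350 and 600028. The groups were compared with limma-trend on log2(FPKM + 1). The fit took in 13520 genes that had 0.5 FPKM or more in 3 or more mice, and its p-values were adjusted by the Benjamini-Hochberg method to q-values. All 8 genes passed this filter. A log2 fold change below 0 means a lower value in OP mice, and a change on this scale understates that of genes with low values. Over all genes tested, the median change was -0.10, and 70.1% of them were below 0, so the changes of the 8 genes are read against that shift. After median-of-ratios scaling between the mice the median of all genes was 0.01.

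The values of OP and OR mice overlapped for each of the 8 genes. By the study's thresholds (a ratio from 1.2 upward or from 0.83 downward, with q under 0.2; limma-trend), 0 of the 8 genes were called, and 0.0222% of all genes tested were called as lower and 0% as higher in OP mice. At an unadjusted p below 0.05 the count was also 0 of 8, where 3.53% of all genes were lower and 0.503% higher, 4.03% in either direction. The groups were free of overlap in 0 of the 8 genes and in 8.44% of all genes, 6.81% with all OP mice below and 1.63% with all OP mice above. For single genes the two-sided exact permutation p lay between 0.2 and 0.9, where 3 mice against 3 can give no p below 0.1. The median log2 fold change of the 8 genes was 0.10 (0.19 after median-of-ratios scaling), with 3 below 0: *Vip*, *S100b* and *Sox10*. That median was below 0 in 3 of the 6 fits that left out 1 mouse, at -0.13 without OP mouse 3, -0.089 without OR mouse 2 and -0.0075 without OR mouse 3, and it reached 0.33 without OR mouse 1. The same pair of mice stood high in most of them: for 5 of the 8 genes OP mouse 3 and OR mouse 1 had the 2 highest values, which was so in 21.3% of all genes tested.

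The general neuronal genes had small log2 fold changes between the groups, with wide intervals. *Uchl1*, which encodes the abundant neuronal ubiquitin hydrolase PGP9.5, measured 13.6, 15.22 and 27.9 FPKM across OP mice 1, 2 and 3 and 28.1, 11.6 and 13.46 FPKM across OR mice 1, 2 and 3. One mouse in each group stood at about the same high level and the other 4 lay close together. Its log2 fold change was 0.12 (standard error 0.38, 95% interval -0.76 to 1.01, adjusted p = 0.968 from limma-trend). *Elavl4*, which encodes the neuronal RNA-binding protein HuD, reached 0.86, 1.42 and 1.85 FPKM in the OP animals, against 2.02, 0.61 and 0.99 FPKM in the OR animals. The highest mouse again was OR mouse 1, followed by OP mouse 3, and the groups overlapped over most of their range. Its log2 fold change was 0.14 (standard error 0.28, 95% interval -0.52 to 0.79, adjusted p = 0.957 from limma-trend). After median-of-ratios scaling the changes were 0.25 for *Uchl1* and 0.21 for *Elavl4*.

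*Ret* encodes the receptor tyrosine kinase through which GDNF-family ligands act on enteric neurons and their precursors. It stood at 1.51, 2.46 and 3.17 FPKM in OP mice 1 to 3 and at 3.04, 1.72 and 1.78 FPKM in OR mice 1 to 3. OP mouse 3 and OR mouse 1 were the highest and OP mouse 1 was the lowest. The log2 fold change was 0.08 (standard error 0.26, 95% interval -0.53 to 0.69, adjusted p = 0.969 from limma-trend). For *Uchl1*, *Elavl4* and *Ret* the sign of the change depended on which mice were included: without OP mouse 3 the log2 fold changes were -0.18, -0.0063 and -0.085, and without OR mouse 2 they were -0.11, -0.067 and -0.019. Without OR mouse 3 those of *Uchl1* and *Ret* were -0.012 and -0.0028. The intervals are wide, so a p above the threshold does not show that the groups had equal levels.

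**Figure D1:**
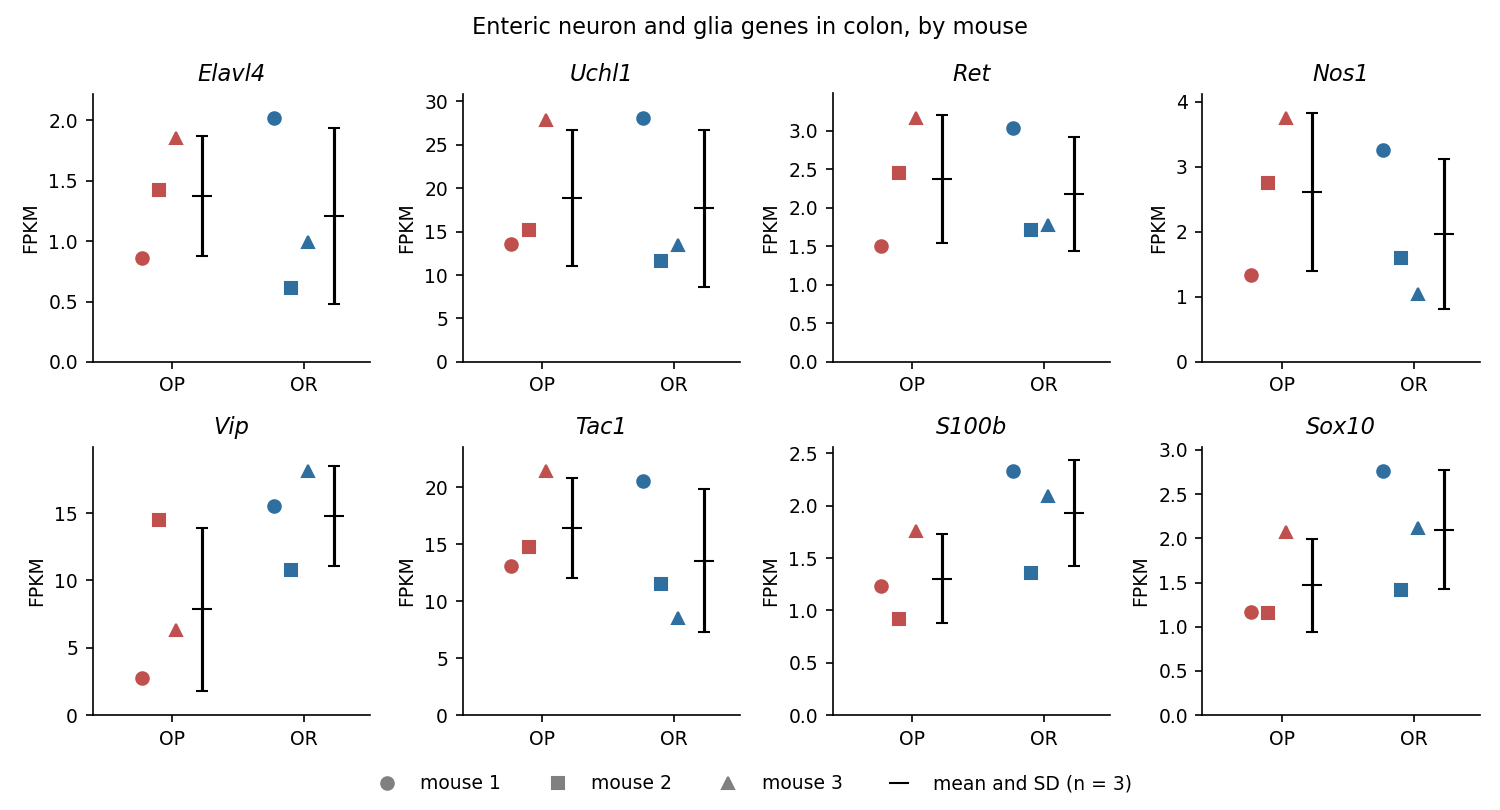
FPKM (vertical axes, each starting at 0) of the 8 enteric neuron and glia genes in 3 OP mice (red) and 3 OR mice (blue), with marker shapes for mice 1, 2 and 3 and black bars for the mean and SD of each group. OP mouse 3 and OR mouse 1 are the 2 highest mice for *Elavl4*, *Uchl1*, *Ret*, *Nos1* and *Tac1*, and the groups overlap in all 8 panels.

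The transmitter genes come next, and the 250 bases before the annotated start of *Vip*, *Nos1* and *Tac1* are shown because *Vip* ordered the mice differently from the other 2. The sequences are from RefSeq on build GRCm38.p6, whereas the study names GRCm39 for its gene set, and they were matched by gene symbol; 6 of the 8 genes had an entry. All 3 lie on the plus strand, *Vip* at chr10:5638968-5639217, *Nos1* at chr5:117866589-117866838 and *Tac1* at chr6:7554811-7555060, each ending at the base before the start of the transcript. Capitals mark TGACG, a 5-base string known from cAMP response elements, or its reverse complement CGTCA; no 2 matches overlap.
*Vip*: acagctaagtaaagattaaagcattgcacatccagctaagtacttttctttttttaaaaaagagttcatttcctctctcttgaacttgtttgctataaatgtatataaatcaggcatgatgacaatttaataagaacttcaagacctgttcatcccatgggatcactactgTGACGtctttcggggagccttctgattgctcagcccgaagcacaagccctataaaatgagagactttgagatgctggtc
*Nos1*: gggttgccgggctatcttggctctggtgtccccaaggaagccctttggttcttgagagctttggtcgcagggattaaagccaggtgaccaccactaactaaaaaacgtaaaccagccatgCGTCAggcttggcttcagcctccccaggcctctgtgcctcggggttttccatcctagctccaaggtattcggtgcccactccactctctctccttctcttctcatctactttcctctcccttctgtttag
*Tac1*: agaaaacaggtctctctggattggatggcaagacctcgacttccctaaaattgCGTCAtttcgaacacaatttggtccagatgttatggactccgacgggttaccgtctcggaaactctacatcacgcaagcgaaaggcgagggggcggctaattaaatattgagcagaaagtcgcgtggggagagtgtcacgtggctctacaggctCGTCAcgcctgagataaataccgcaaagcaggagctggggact

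*Vip* held 1 match, from 79 to 75 bases before the start, *Nos1* held 1, from 130 to 126 bases before it, and *Tac1* held 2, from 197 to 193 and from 43 to 39 bases before it. A match in either orientation was found in 17.8% of the 32851 windows of the same length in the table, so it is a common string of letters. The matches describe these sequences only; binding of a factor was not measured.

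Among the inhibitory transmitters, *Vip*, which encodes vasoactive intestinal peptide, had the largest difference of the 8 genes. It measured 2.73, 14.49 and 6.34 FPKM across OP mice 1, 2 and 3 and 15.51, 10.8 and 18.11 FPKM across OR mice 1, 2 and 3. OP mice 1 and 3 lay below all OR mice, but OP mouse 2 lay above OR mouse 2, so the groups overlapped. The OP group averaged 7.85 ± 6.02 FPKM and the OR group 14.8 ± 3.71 FPKM (SD, n = 3 each), a ratio OR/OP of 1.89. The log2 fold change was -1.05 (standard error 0.48, 95% interval -2.18 to 0.09, unadjusted p = 0.0661 and adjusted p = 0.945 from limma-trend). This value rested on single mice: without OP mouse 2 it was -1.57 (unadjusted p = 0.00317 and adjusted p = 0.772, limma-trend), and without OP mouse 1 it was -0.54. Over the 6 fits that each left out 1 mouse, the unadjusted limma-trend p ranged from 0.00317 to 0.19.

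*Nos1*, which encodes neuronal nitric oxide synthase, did not follow *Vip*. Whole colon tissue does not show which neurons held either message. It reached 1.34, 2.75 and 3.75 FPKM in the OP animals, against 3.26, 1.6 and 1.05 FPKM in the OR animals. OR mouse 3, the highest mouse for *Vip*, was the lowest for *Nos1*. Its log2 fold change was 0.29 (standard error 0.36, 95% interval -0.54 to 1.12, adjusted p = 0.945 from limma-trend), and it ranged from 0.06 to 0.59 with each mouse left out.

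On the excitatory side, *Tac1* encodes the precursor of substance P and neurokinin A; its message is also known from enterochromaffin cells of the epithelium. It stood at 13.07, 14.75 and 21.39 FPKM in OP mice 1 to 3 and at 20.56, 11.47 and 8.54 FPKM in OR mice 1 to 3. The order of the mice was close to that of *Nos1*, with OP mouse 3 and OR mouse 1 highest. The log2 fold change was 0.32 (standard error 0.32, 95% interval -0.44 to 1.07, adjusted p = 0.945 from limma-trend); without OR mouse 3 it was 0.06 and without OR mouse 1 it was 0.65.

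Ratios within a mouse show how these transmitters moved against each other. *Nos1* against *Tac1*, as a difference of log2(FPKM + 1), was -2.59, -2.07 and -2.24 in OP mice and -2.34, -2.26 and -2.22 in OR mice. This range was narrow across all 6 mice on this scale, which understates changes of genes with low values such as *Nos1*. *Vip* against *Nos1* was 0.67, 2.05 and 0.63 in OP mice and 1.95, 2.18 and 3.22 in OR mice. OP mice 1 and 3 were low and OR mouse 3 was high, and OP mouse 2 lay within the range of the OR mice. The difference between the group means was -1.34 for *Vip* against *Nos1*, -1.36 for *Vip* against *Tac1* and -0.03 for *Nos1* against *Tac1*. The two-sided exact permutation p was 0.2, 0.3 and 0.9, in that order. With a pseudocount of 0.1 the difference for *Nos1* against *Tac1* was 0.08. For the mean of *Vip* and *Nos1* against *Tac1*, inhibitory over excitatory, the difference was -0.69 (exact permutation p = 0.3). In all, 7 ratios were computed, and their Benjamini-Hochberg adjusted values from the exact permutation tests were 0.42 or 0.9.

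**Figure D2:**
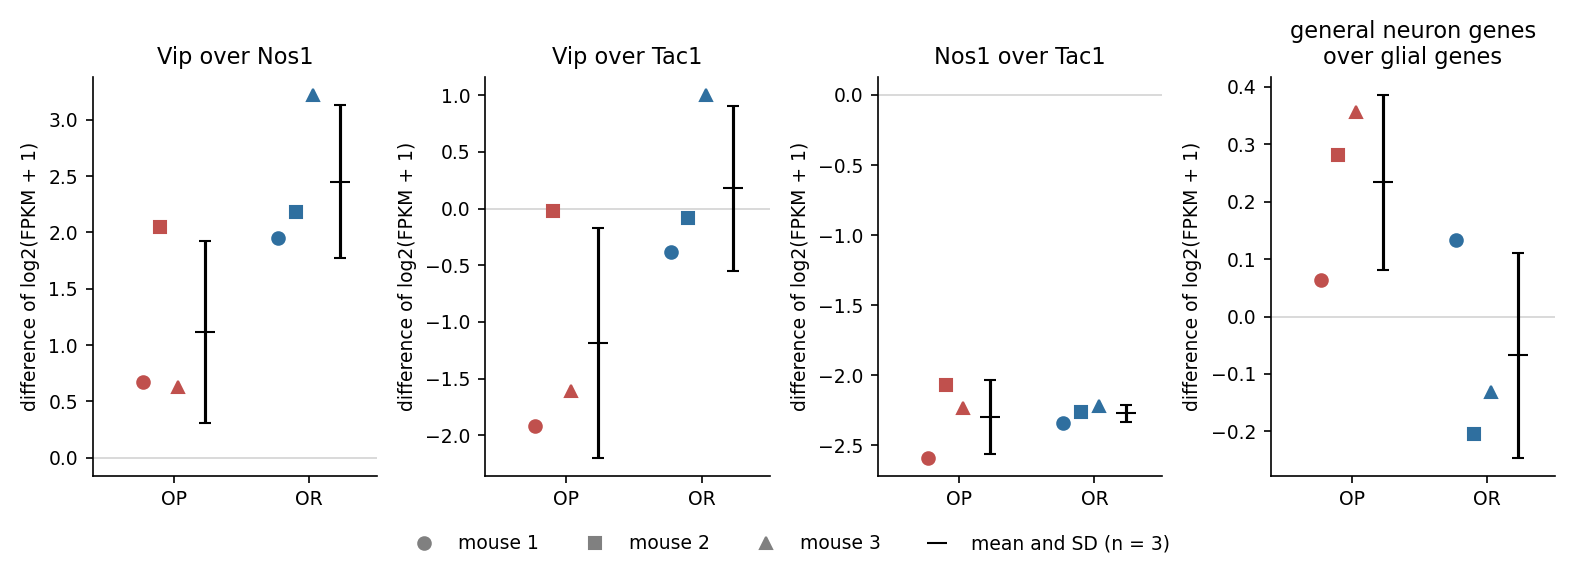
Differences of log2(FPKM + 1) within each mouse (vertical axes, which do not all start at 0) for 3 pairs of transmitter genes and for the mean of the general neuron genes against the mean of the glial genes, in 3 OP mice (red) and 3 OR mice (blue), with the mean and SD of each group in black. *Nos1* against *Tac1* stays between -2.59 and -2.07, while *Vip* against *Nos1* spans 0.63 to 3.22 and its groups overlap through OP mouse 2.

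Both glial genes had a lower mean in OP mice, with values that overlapped between the groups and a difference that did not pass the test. *S100b*, which encodes a calcium-binding protein of glia, measured 1.23, 0.92 and 1.76 FPKM across OP mice 1, 2 and 3 and 2.33, 1.36 and 2.09 FPKM across OR mice 1, 2 and 3. OR mice 1 and 3 were above all OP mice, whereas OR mouse 2 was below OP mouse 3. Its log2 fold change was -0.35 (standard error 0.22, 95% interval -0.86 to 0.17, unadjusted p = 0.157 and adjusted p = 0.945 from limma-trend). *Sox10*, the transcription factor that maintains glia and their neural crest progenitors, reached 1.17, 1.16 and 2.07 FPKM in the OP animals, against 2.76, 1.42 and 2.12 FPKM in the OR animals. The arrangement was that of *S100b*, with OR mouse 2 among the OP mice and OP mouse 3 just below OR mouse 3. The log2 fold change was -0.33 (standard error 0.24, 95% interval -0.89 to 0.24, unadjusted p = 0.214 and adjusted p = 0.945 from limma-trend). With each mouse left out, *S100b* stayed between -0.49 and -0.22 and *Sox10* between -0.49 and -0.18.

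By level per transcript length, over the 6 mice, *Uchl1* was highest with a mean FPKM of 18.3, followed by *Tac1* with 15.0 and *Vip* with 11.3. *Nos1* and *Ret* had 2.29 and 2.28, *Sox10* had 1.78, *S100b* 1.61 and *Elavl4* 1.29. Neighbours in this order were compared within mice on log2(FPKM + 1) by a two-sided exact sign-flip permutation test, for which 6 mice give a smallest p of 0.0312. *Uchl1* was above *Tac1*, and *Vip* above *Nos1*, in 6 of 6 mice (exact p = 0.0312 each, adjusted over the 7 pairs 0.109). *Tac1* was above *Vip* in 5 of 6 mice (exact p = 0.281) and *Nos1* above *Ret* in 3 of 6 (exact p = 0.812). The other 3 neighbouring pairs had exact p-values between 0.0938 and 0.25. No neighbouring pair passed after adjustment, but *Uchl1* over *Tac1* and *Vip* over *Nos1* were already at the smallest p that 6 mice give. The test could hardly have passed any pair, and the order came from the same means, so it does not show equal levels.

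Wider lists of the same cell types gave the same picture for neurons. Of 21 general neuronal genes, which include *Uchl1*, *Elavl4* and *Ret*, 19 were tested, and their median log2 fold change was 0.07, with 14 above 0; the median was -0.14 without OP mouse 3, -0.067 without OR mouse 2 and -0.037 without OR mouse 3, and it reached 0.28 without OR mouse 1. After median-of-ratios scaling the median of this list was 0.17, with 4 of 19 below 0, where the median of all genes was 0.01. At an unadjusted limma-trend p below 0.05, 0 were lower and 0 higher, and 0 had a q-value below 0.2. *Prph*, which encodes the intermediate filament peripherin, stood at 7.27, 8.91 and 17.78 FPKM in OP mice 1 to 3 and at 16.11, 7.85 and 8.06 FPKM in OR mice 1 to 3. It was highest in OP mouse 3 and OR mouse 1. The lowest p of this list belonged to *Ncam1*, a neural cell adhesion molecule, with a log2 fold change of -0.40 (unadjusted p = 0.179, limma-trend).

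OP mouse 3 and OR mouse 1 were also high in many, though not all, neuronal genes beyond the 8. Without *Uchl1*, *Elavl4* and *Ret*, 16 general neuronal genes were tested, *Prph* and *Ncam1* among them. OP mouse 3 and OR mouse 1 had the 2 highest values in 12 of the 16 (75%), against 21.3% of all genes tested. They were the 2 highest in 10 of 12 synaptic genes (83.3%) and in 6 of 6 excitatory genes, *Tac1* among them. Among inhibitory genes, *Nos1* and *Vip* included, they were the 2 highest in 2 of 4 (50%), and among genes of sensory neurons and interneurons in 2 of 6 (33.3%). *Snap25*, a synaptic membrane protein, measured 3.96, 6.15 and 11.4 FPKM across OP mice 1, 2 and 3 and 10.26, 4.52 and 4.54 FPKM across OR mice 1, 2 and 3. *Chat*, the acetylcholine-synthesizing enzyme, measured 0.48, 0.63 and 1.31 FPKM across OP mice 1, 2 and 3 and 1.08, 0.37 and 0.63 FPKM across OR mice 1, 2 and 3. Averaged over the 16 general neuronal genes, the distance of each mouse from the 6-mouse mean, in log2(FPKM + 1), was -0.28, -0.11 and 0.41 in OP mice and 0.37, -0.28 and -0.12 in OR mice. For all genes tested it was -0.24, -0.03 and 0.09 in OP mice and 0.11, -0.02 and 0.08 in OR mice, with OP mouse 1 the lowest over the whole table.

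Of the synaptic genes, 12 of 12 were tested, and their median log2 fold change was 0.13. *Vamp2*, a vesicle protein and the highest of them, averaged 38.4 ± 9.26 FPKM (SD, n = 3) in the OP group and 39.0 ± 4.21 FPKM (SD, n = 3) in the OR group. *Sv2b*, with the lowest p of the list, had a log2 fold change of -0.16 (unadjusted p = 0.289, limma-trend). Its values lay near the filter of 0.5 FPKM. All OP mice (0.30 to 0.45 FPKM) were below all OR mice (0.50 to 0.55 FPKM), as in 6.81% of all genes. The 6 excitatory genes had a median of 0.08; *Penk*, the enkephalin precursor, had -0.41 (unadjusted p = 0.265, limma-trend). Of 6 inhibitory genes, 4 were tested, with a median of -0.04. Of 10 genes of sensory neurons and interneurons, 6 were tested, with a median of 0.34, and 4 of these were above 0. *Calcb*, which encodes a calcitonin gene-related peptide, reached 4.79, 4.23 and 4.74 FPKM in the OP animals, against 4.95, 1.58 and 1.92 FPKM in the OR animals, with a log2 fold change of 0.65 (unadjusted p = 0.0809, limma-trend). *Grp*, the gastrin-releasing peptide precursor, averaged 7.27 ± 1.35 FPKM (SD, n = 3) in the OP group and 6.67 ± 5.58 FPKM (SD, n = 3) in the OR group. In these 4 lists 0 genes had an unadjusted limma-trend p below 0.05 and 0 a q-value below 0.2.

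**Figure D3:**
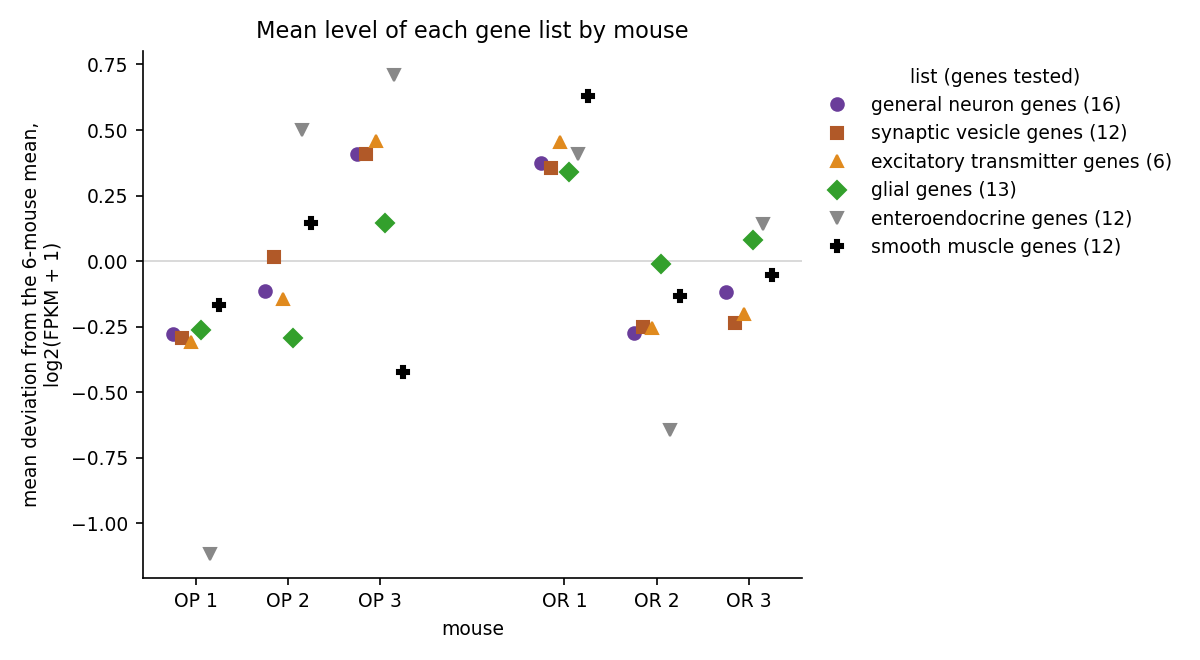
Mean deviation of 6 gene lists from the mean of the 6 mice (vertical axis, log2(FPKM + 1)) in each OP and OR mouse (horizontal axis); each point is the mean over the genes tested of that list, and the general neuron genes leave out *Uchl1*, *Elavl4* and *Ret*. The neuronal lists are highest in OP mouse 3 and OR mouse 1, at 0.35 or above, where the smooth muscle genes are at -0.42 and 0.63.

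The glial list was below 0 more uniformly than the neuronal lists. Of 15 glial genes, 13 were tested; their median log2 fold change was -0.35, and 12 of the 13 were below 0, where 70.1% of all genes were. At an unadjusted limma-trend p below 0.05, 1 was lower, 0 were higher, and 0 passed a q-value of 0.2; 3.53% of all genes tested were lower at that p. The 1 gene was *Col28a1*, a collagen of peripheral glia, at 0.43, 0.81 and 0.87 FPKM in the OP animals and 1.34, 1.09 and 1.51 FPKM in the OR animals. All OR mice were above all OP mice, which 6.81% of all genes showed. Its log2 fold change was -0.45 (standard error 0.18, unadjusted p = 0.0409 and adjusted p = 0.945 from limma-trend). *Gfap*, the glial intermediate filament, stood at 1.23, 1.53 and 2.26 FPKM in OP mice 1 to 3 and at 4.09, 3.06 and 1.36 FPKM in OR mice 1 to 3. Its values overlapped between the groups. The exception above 0 was *Erbb3*, a neuregulin receptor that epithelium also expresses; at between 72.7 and 171 FPKM it lay far above every other glial gene of the list.

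The median of the glial list was -0.26 after median-of-ratios scaling, with 11 of 13 below 0, where 6460 of 13461 genes tested were. It was -0.54 with a pseudocount of 0.1 (12 of 13 below 0), and lay between -0.49 and -0.23 with each mouse left out. With sample weights it was -0.42, with 10 of 13 below 0. The mean of the general neuronal genes against that of the glial genes, within a mouse, was 0.06, 0.28 and 0.36 in OP mice and 0.13, -0.20 and -0.13 in OR mice. OP mice 2 and 3 were above all OR mice, and OP mouse 1 was below OR mouse 1. The difference between the groups was 0.30 (two-sided exact permutation p = 0.2). The neuronal and the glial list were thus not shown to differ in their change between the groups.

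**Figure D4:**
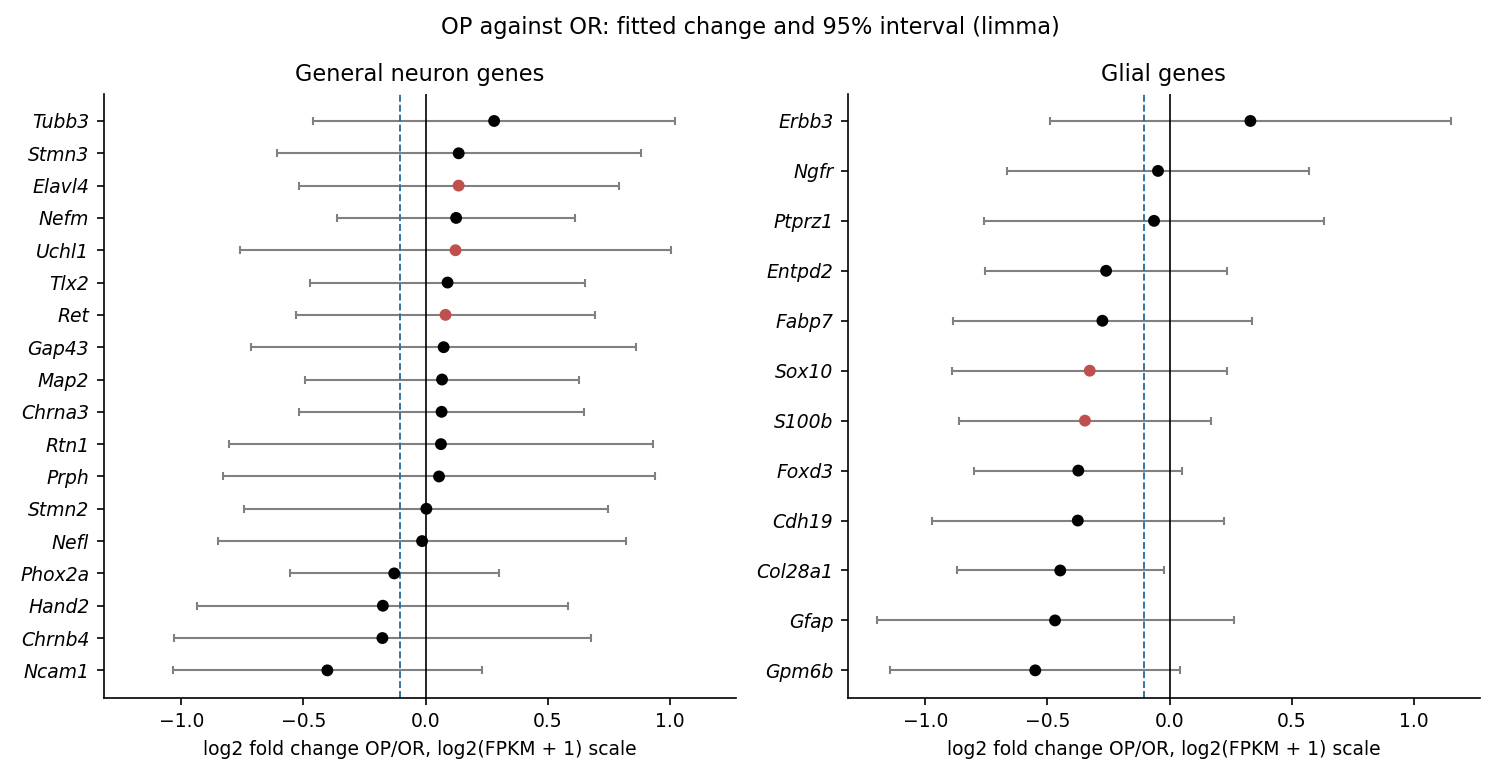
Log2 fold change OP/OR (horizontal axes, log2(FPKM + 1) scale) with its 95% interval from limma for 18 of the 19 general neuron genes and 12 of the 13 glial genes tested; red points are genes of the 8, the solid line is 0 and the dashed line is the median of all genes, -0.10. Of the glial genes plotted 11 lie below 0 and only the interval of *Col28a1* leaves it out, while 13 of the neuron genes plotted lie above 0.

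The ligands and receptors around *Ret* were mostly below 0. Of 17 genes of Ret, endothelin and neurotrophin signalling in the table, 15 were tested, and their median log2 fold change was -0.18, with 13 below 0, as were 70.1% of all genes. At an unadjusted limma-trend p below 0.05, 1 was lower and 0 higher, where 3.53% of all genes were lower, and 0 had a q-value below 0.2. This was *Ednrb*, the endothelin receptor needed for neural crest cells to colonize the gut, which endothelium and stroma express as well. It stood at 1.53, 0.74 and 2.56 FPKM in OP mice 1 to 3 and at 3.26, 3.74 and 5.74 FPKM in OR mice 1 to 3. The groups did not overlap, as in 6.81% of all genes with all OP mice below, and the ratio of means OR/OP was 2.64. Its log2 fold change was -1.04 (standard error 0.31, unadjusted p = 0.0111 and adjusted p = 0.933 from limma-trend). *Gdnf*, the main Ret ligand of the gut, measured 0.52, 0.61 and 1.41 FPKM across OP mice 1, 2 and 3 and 1.88, 1.26 and 0.93 FPKM across OR mice 1, 2 and 3. Its co-receptor *Gfra1* reached 1.5, 1.4 and 3.14 FPKM in the OP animals, against 3.81, 2.62 and 2.59 FPKM in the OR animals. For both the groups overlapped, with OP mouse 3 and OR mouse 1 the 2 highest mice, as in 4 of the 15 genes of this list (26.7%) and 21.3% of all genes.

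Among 18 receptors and effectors of the transmitters, 14 were tested, and their median log2 fold change was -0.18; 11 were below 0, as were 70.1% of all genes. At an unadjusted limma-trend p below 0.05, 2 were lower and 0 higher, where 3.53% of all genes were lower, and 0 had a q-value below 0.2. *Gucy1a1*, a subunit of the nitric oxide receptor guanylate cyclase, measured 2.8, 2.02 and 4.08 FPKM across OP mice 1, 2 and 3 and 6.62, 4.37 and 4.33 FPKM across OR mice 1, 2 and 3, with a log2 fold change of -0.63 (unadjusted p = 0.0428, limma-trend). The partner subunit *Gucy1b1* stood at 4.61, 4.34 and 5.77 FPKM in OP mice 1 to 3 and at 7.97, 5.33 and 7.07 FPKM in OR mice 1 to 3, and its groups overlapped. *Galr2*, a galanin receptor, measured 0.9, 0.55 and 1.29 FPKM across OP mice 1, 2 and 3 and 1.56, 2.12 and 2.06 FPKM across OR mice 1, 2 and 3, with a log2 fold change of -0.62 (unadjusted p = 0.0179, limma-trend). The groups did not overlap for *Gucy1a1* and *Galr2*, as in 6.81% of all genes with all OP mice below. *Vipr1*, a receptor for vasoactive intestinal peptide that epithelium expresses, averaged 79.5 ± 9.81 FPKM (SD, n = 3) in the OP group and 72.0 ± 4.63 FPKM (SD, n = 3) in the OR group.

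Markers of muscle, pacemaker, enteroendocrine and epithelial cells are given for the same mice; 0 of them had an unadjusted limma-trend p below 0.05 and 0 a q-value below 0.2, and their part in the neuronal and glial values was not tested. Smooth muscle genes were below 0 in 12 of 12, where 70.1% of all genes were. Their median was -0.32, with a summed FPKM of 1586 to 2445 in OP mice and 1947 to 3541 in OR mice. After median-of-ratios scaling 9 of 12 were below 0, where 6460 of 13461 genes tested were. Without OP mouse 3 and OR mouse 1 the smooth muscle median was 0.10. OP mouse 3, high for neuronal genes, was the lowest mouse for smooth muscle. The 8 genes against the smooth muscle genes, within a mouse, differed by 0.20 between the groups (exact permutation p = 0.9), and by -0.10 without OP mouse 3. Enteroendocrine genes, which share some members of the neuronal secretory program, had a median of -0.08. In 7 of 12 the 2 highest values were in OP mouse 3 and OR mouse 1, against 21.3% of all genes tested. The summed FPKM of the enteroendocrine genes was 124 to 728 in OP mice and 174 to 488 in OR mice. *Chga*, their defining granule protein, reached 25.78, 43.71 and 179.17 FPKM in the OP animals, against 88.81, 36.91 and 52.89 FPKM in the OR animals. Epithelial genes had a median of 0.02, with 5 of 13 below 0 and summed values of 15530 to 28380 FPKM in OP mice and 15800 to 29230 in OR mice. The pacemaker genes *Kit* and *Ano1* had log2 fold changes of -0.59 and 0.20 (unadjusted p = 0.302 and 0.765, limma-trend). *Kit* ranged from 3.59 to 24.92 FPKM over the mice. *Ano1* was at 38.96 FPKM in OP mouse 2 and between 4.99 and 14.42 FPKM in the other mice.

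The glial median of -0.35 lay beside larger differences in other non-epithelial cells, whose part in it was not tested. Fibroblast genes were below 0 in 10 of 10, with a median of -0.89 and summed FPKM of 93.4 to 171 in OP mice and 256 to 503 in OR mice. Endothelial genes were below 0 in 9 of 9, with a median of -0.82 and sums of 15.96 to 26.3 and 29.1 to 51.2. Macrophage genes were below 0 in 8 of 8, with a median of -0.96 and sums of 32.6 to 89.25 and 96.6 to 129. Adipocyte genes were below 0 in 6 of 7, with a median of -1.04 and sums of 22.2 to 145 and 74.3 to 372; *Adipoq* and *Plin1* were listed at 0 in OP mouse 2. At an unadjusted limma-trend p below 0.05, 8 of 10 fibroblast, 8 of 9 endothelial, 8 of 8 macrophage and 1 of 7 adipocyte genes were lower, and 0 of them had a q-value below 0.2. Over all genes tested, 70.1% were below 0 and 3.53% were lower at that p.

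When OP mouse 3 and OR mouse 1 were both left out, a choice made after seeing the data, the median log2 fold change was 0.14 for the 8 genes, 0.10 for the 19 general neuronal genes and -0.38 for the 13 glial genes, and *Vip* was at -0.98. The genes outside all lists that followed the mean standardized level of the 8 genes most closely over the 6 mice included *Zcchc12*, *Zfp943*, *Mical3* and *Zscan20*, with a Pearson r from 0.9915 to 0.9900. They are among the 5 highest of 13358 genes, 543 of which (4.06%) had an r above 0.9, and all points come from the same 6 libraries. *Zcchc12* came to 1.93, 2.78 and 4.89 FPKM in OP mice 1, 2 and 3 and to 5.41, 2.35 and 2.56 FPKM in OR mice 1, 2 and 3.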

How the data were processed

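RNA was extracted from the colon with TRIzol, and messenger RNA was enriched for strand-specific libraries sequenced on the DNBSEQ platform. Reads were cleaned by the authors (SOAPnuke), mapped to a gene set (Bowtie2) and turned into gene values (RSEM); the methods and the labels differ in tool versions and in the gene set, and the submitters' processing notes also list HISAT2 2.0.4. The authors deposited FPKM values to 2 decimals, 1 column per mouse. In 123 low genes searched for steps of single reads, only 3 to 11 were above 0 in both mice of a pair, too few to set relative depths. Samples were grouped by their labels.

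The comparison used limma 3.58.1 (R 4.3.3) with trend on log2(FPKM + 1), without covariates; single values were compared by exact permutation tests (SciPy 1.17.1). The study's DESeq2 needs counts and was not run. Alternatives tried were median-of-ratios scaling, TPM, limma without trend, a pseudocount of 0.1, other filters, sample weights, a replicate block and each mouse left out. The genes and lists were chosen with earlier results of these data known. Named besides the 8 genes were, per list, those with an unadjusted p below 0.05 (up to 4), or else the highest gene and that with the lowest p. Other genes were named after their values were seen, for their role. Some genes of the lists are counted but not reported singly here. Lists of cells other than neurons and glia are given by counts and sums.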

Additional observations from a re-analysis of the deposited data

How the results depend on the processing

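The 8 genes stayed above the q-value threshold under all alternatives run. Among the alternative values of single genes and added ratios, 138 were counted as the same. This count includes *Nos1* against *Tac1*, whose group difference was -0.0252 and changed sign near 0. It was 0.0804 with a pseudocount of 0.1, 0.1196 without OP mouse 1 and 0.002226 without OR mouse 3. The remaining 8, all from fits that left out 1 mouse, were sign changes of single genes near 0. With each mouse left out the log2 fold change ranged from -0.06657 to 0.3872 for *Elavl4*, from -0.1803 to 0.4922 for *Uchl1* and from -0.08512 to 0.2811 for *Ret*. *Elavl4* and *S100b* had no value with at least 1 FPKM in all 6 mice. The medians of the 8 genes and of the general neuronal genes lay below 0 in 3 of the 6 fits that left out 1 mouse. Over those fits the median ranged from -0.1327 to 0.327 for the 8 genes and from -0.1437 to 0.2768 for the general neuronal genes. The neuronal against the glial genes differed by 0.4939 with a pseudocount of 0.1 in place of 0.301.

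Over all genes, the study's thresholds gave 3 lower in OP mice. The count was 0 with median-of-ratios scaling, TPM, a pseudocount of 0.1, no filter, at least 1 FPKM in all 6 mice, the replicate block or without both OP mouse 3 and OR mouse 1, 5 with sample weights, and 0 to 1 with each mouse left out. At an unadjusted p below 0.05, 477 were lower (317 with at least 1 FPKM in all 6 mice, 231 to 1104 with each mouse left out) and 68 higher (154 with median-of-ratios scaling, 133 with no filter, 146 with sample weights, 24 to 181 with each mouse left out). The cause was not tested.

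Fitted with a replicate block, 409 genes had an unadjusted p below 0.05 as lower and 66 as higher, and 0 of the 8 genes passed; *Vip* had an unadjusted limma-trend p of 0.0513. Same-numbered mice are different animals and share only a number: the correlations of their deviations over genes were -0.144, -0.157 and 0.0709, and none of the OP mice correlated best with its own number. Depth is unknown, and 3 mice a group left intervals too wide to show equal levels.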
